A study of Drosophila melanogaster with 39 samples.

Results

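CP190 binding after eff knockdown was set against CP190 binding after cul4 knockdown in Kc167 cells, a Drosophila line of embryonic origin with hemocyte character. Both groups came from cells incubated with dsRNA for 4 days at 25°C, with eff dsRNA in 3 CP190 libraries and cul4 dsRNA in the other 3. These 6 libraries are part of a series of 39, of which 30 have a peak list, and the CP190 libraries of control cells, which received mcherry dsRNA, serve below only as a measured background. Replicates are labelled as biological, with no statement that they came from separate cultures, so p-values measure the spread between these libraries. The peaks of the 6 lists were merged wherever they shared at least 1 bp, which gave 8765 regions. Of these, 89 were called in all 3 eff knockdown libraries and in no cul4 knockdown library (eff-only regions), and 11 were called in all 3 cul4 knockdown libraries and in no eff knockdown library (cul4-only regions). Another 6076 regions were called in all 6 libraries.

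CP190 is a zinc finger protein of chromatin insulators, elements that separate regulatory domains along the chromosome. It does not read one sequence of its own. It is brought to DNA by partners such as Su(Hw), BEAF-32 and CTCF, and it is also abundant at active promoters. Effete (Eff) is an E2 ubiquitin-conjugating enzyme, and Cullin 4 (Cul4) is the protein on which one class of E3 ubiquitin ligases is assembled, so the comparison sets the loss of a ubiquitin-carrying enzyme beside the loss of a ligase scaffold. Knockdown was not measured by the CP190 lists. The paper checked it by western blot and immunostaining, and the amount of protein left in these libraries was not measured here.

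Windows of 300 bases centred on the summit are shown for 8 of the named regions, from the plus strand of the release 6 genome. The first pair are eff-only regions. CG3630 (chrX:2162206-2162505) had the highest rank of the 89, and its single capital is the summit. CG12171 (chr3R:5633444-5633743) carries the BEAF-32 motif TATCGATA in capitals.
CG3630: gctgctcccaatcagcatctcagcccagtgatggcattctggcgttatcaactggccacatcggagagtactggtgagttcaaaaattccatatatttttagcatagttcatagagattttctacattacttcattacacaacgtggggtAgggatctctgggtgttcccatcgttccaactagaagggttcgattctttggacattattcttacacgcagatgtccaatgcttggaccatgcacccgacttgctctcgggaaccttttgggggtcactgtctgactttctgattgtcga
CG12171: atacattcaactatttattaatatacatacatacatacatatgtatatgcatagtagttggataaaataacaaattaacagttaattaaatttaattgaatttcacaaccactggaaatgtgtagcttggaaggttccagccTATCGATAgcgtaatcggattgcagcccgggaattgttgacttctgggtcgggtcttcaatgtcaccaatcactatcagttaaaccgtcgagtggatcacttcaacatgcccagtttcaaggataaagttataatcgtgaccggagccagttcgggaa

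The next pair are cul4-only regions. Sem1 (chr2L:7063188-7063487) had the highest rank of the 11, with the summit in capitals, and CG13970 (chr2L:20115953-20116252) carries the M1BP motif GTGTGACC in capitals. The latter region is intergenic, and its summit lies 11953 bp from the nearest transcription start site, that of CG13970.
Sem1: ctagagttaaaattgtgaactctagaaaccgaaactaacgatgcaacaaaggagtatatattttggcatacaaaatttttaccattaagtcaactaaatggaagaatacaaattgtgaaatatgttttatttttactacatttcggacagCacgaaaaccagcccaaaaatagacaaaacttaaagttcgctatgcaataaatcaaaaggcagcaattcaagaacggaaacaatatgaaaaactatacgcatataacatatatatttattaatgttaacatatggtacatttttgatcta
CG13970: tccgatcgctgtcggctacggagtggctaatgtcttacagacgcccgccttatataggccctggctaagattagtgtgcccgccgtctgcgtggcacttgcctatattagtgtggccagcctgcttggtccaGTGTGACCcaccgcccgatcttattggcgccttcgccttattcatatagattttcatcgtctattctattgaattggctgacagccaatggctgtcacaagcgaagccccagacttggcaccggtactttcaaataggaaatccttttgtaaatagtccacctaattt

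The last 4 windows are regions called in all 6 libraries whose rank differed between the knockdowns. The windows of lncRNA:CR44588 (chr2L:12012129-12012428) and Irk1 (chr3R:23167935-23168234) ranked higher in eff knockdown. CG6908 (chr3R:11689868-11690167) ranked higher in cul4 knockdown. In these 3 the capital is the summit. The tRNA:Pro-AGG-1-2 window (chr2L:14598638-14598937) also ranked higher in cul4 knockdown, without passing the test, and the 72 bases in capitals are the tRNA gene.
lncRNA:CR44588: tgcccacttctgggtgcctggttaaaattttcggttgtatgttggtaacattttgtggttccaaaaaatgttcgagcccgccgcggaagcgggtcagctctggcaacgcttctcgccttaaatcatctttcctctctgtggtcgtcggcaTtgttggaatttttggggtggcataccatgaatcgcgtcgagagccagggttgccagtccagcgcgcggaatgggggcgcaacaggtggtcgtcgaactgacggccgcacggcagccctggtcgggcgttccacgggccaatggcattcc
Irk1: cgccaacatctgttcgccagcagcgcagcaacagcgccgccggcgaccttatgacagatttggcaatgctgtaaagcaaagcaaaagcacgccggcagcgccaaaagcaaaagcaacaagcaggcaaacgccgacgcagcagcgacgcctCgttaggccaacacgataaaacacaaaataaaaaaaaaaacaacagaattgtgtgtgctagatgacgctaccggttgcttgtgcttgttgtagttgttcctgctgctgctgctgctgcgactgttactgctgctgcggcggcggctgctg
CG6908: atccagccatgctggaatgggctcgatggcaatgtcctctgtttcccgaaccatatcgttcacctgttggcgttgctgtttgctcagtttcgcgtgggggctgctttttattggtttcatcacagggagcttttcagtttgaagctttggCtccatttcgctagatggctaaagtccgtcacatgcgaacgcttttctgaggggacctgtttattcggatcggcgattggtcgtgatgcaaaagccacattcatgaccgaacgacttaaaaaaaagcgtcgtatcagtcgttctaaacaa
tRNA:Pro-AGG-1-2: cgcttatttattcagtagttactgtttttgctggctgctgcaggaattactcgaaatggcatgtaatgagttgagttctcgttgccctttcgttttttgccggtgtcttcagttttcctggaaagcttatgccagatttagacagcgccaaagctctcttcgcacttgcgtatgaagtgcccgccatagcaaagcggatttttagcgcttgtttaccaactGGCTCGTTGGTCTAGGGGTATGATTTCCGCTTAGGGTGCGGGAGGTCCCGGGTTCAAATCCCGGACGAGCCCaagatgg

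The lists held 8243, 7886 and 7622 peaks in eff knockdown replicates 1, 2 and 3, against 8534, 7215 and 6496 in cul4 knockdown. The eff lists were close in length, whereas the cul4 lists spread widely (7917 ± 312 peaks in eff knockdown and 7415 ± 1034 in cul4 knockdown, SD, n = 3 each). The difference of 502 peaks was within that spread (exact permutation test, two-sided, p = 0.5, where the smallest p that 3 against 3 allows is 0.1). It was 42.5 peaks without cul4 replicate 3 and 1061.5 without cul4 replicate 1, where the lists did not overlap (exact permutation p = 0.1, the smallest that 3 against 2 allows). The lists carry no read totals, and depth was therefore read from the lowest local background implied by the fold enrichment and p of the peaks. It was 22.4, 20.6 and 20.1 reads at a summit in eff knockdown, against 22.8, 12.1 and 6.21 reads in cul4 knockdown. Cul4 replicate 1 therefore matched the eff libraries, while cul4 replicates 2 and 3 had a lower background. Depth and knockdown cannot be told apart for these 2 libraries.

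Most CP190 regions were called after either knockdown. Of 7404 regions called in all 3 eff libraries, 93 (1.26%) were absent from the list of cul4 replicate 1, 554 (7.48%) from that of replicate 2 and 1275 (17.2%) from that of replicate 3. Of 6130 regions called in all 3 cul4 libraries, 13, 28 and 50 were absent from the lists of eff replicates 1, 2 and 3. The shared share of regions was 91.3 to 93.3% between pairs of eff libraries and 74.1 to 85.9% between pairs of cul4 libraries. Between an eff and a cul4 library it was 75.5 to 90.5%, a range that overlaps the one among the cul4 libraries.

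**Figure D1:**
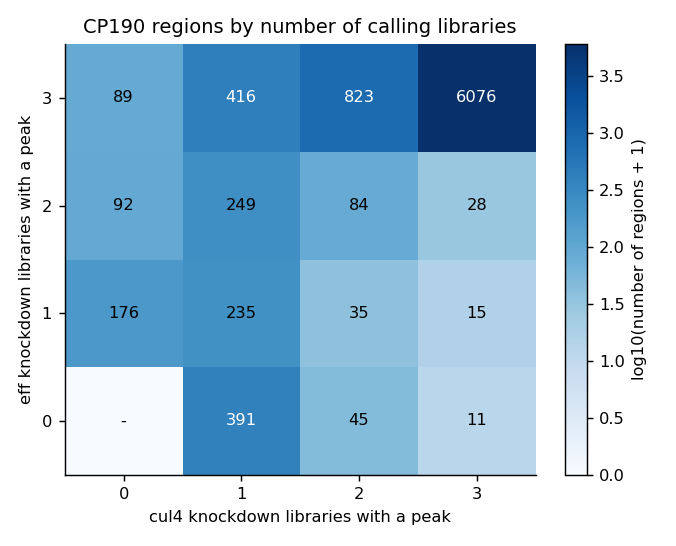
Number of merged CP190 regions by how many eff knockdown libraries (vertical axis, 0 to 3) and cul4 knockdown libraries (horizontal axis, 0 to 3) called them, with colour on a log10 scale. The 6076 regions called in all 6 libraries stand at the top right, the 89 eff-only regions at the top left and the 11 cul4-only regions at the bottom right.

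Regions called in one knockdown alone were few and mostly weak. The 89 eff-only regions were 1.02% of all merged regions, and the 11 cul4-only regions were 0.125%. Just outside these limits, 416 regions were called in 3 eff and 1 cul4 library and 92 in 2 eff and no cul4 library, against 15 called in 1 eff and 3 cul4 libraries and 45 in no eff and 2 cul4 libraries. Peaks were ranked within each list by fold enrichment and given as a percentile, with 100 for the strongest peak. The median of the mean percentile was 11.1 for eff-only regions in eff knockdown, against 47.3 for all merged regions there. Only 10 of the 89 lay above the 25th percentile and 1 above the 50th. The 11 cul4-only regions had a median of 27.6 in cul4 knockdown, against 41.8 for all merged regions, with 6 above the 25th and 2 above the 50th percentile.

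The excess of eff-only over cul4-only regions moved with the length of the lists and with single libraries. With each list shortened to its 6496 strongest peaks by p, the counts were 98 eff-only and 56 cul4-only regions, and with backgrounds scaled to the lowest they were 77 and 48. Of the 89 eff-only regions, 12 met the rule at equal list length, including all of the 10 with the highest rank. Of the 11 cul4-only regions, 6 did. Without cul4 replicate 1 the eff-only count was 503, and without eff replicate 3 it was 150. The cul4-only count was 25 without eff replicate 1, 22 without cul4 replicate 2 and 45 without cul4 replicate 3.

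The strongest eff-only region lay at CG3630 on chrX:2162101-2162655, with its summit 160 bp from the transcription start site (TSS). Its fold enrichment was 8.78, 7.99 and 8.81 in the eff libraries, which placed it at the 56.3, 50.4 and 56.5 percentile, and it was in no cul4 list. In control cells it was called in replicates 1 and 3, at the 29.2 and 29.8 percentile. It therefore ranked higher in all 3 eff libraries than in either control library that called it.

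The second lay near lncRNA:CR44467 on chr2R:16847731-16848198, with fold enrichments of 7.99, 6.66 and 6.05 in eff knockdown. All 3 control libraries called it, at the 71.3, 54.4 and 68.9 percentile, above its 50.3, 39.8 and 34.0 percentile in eff knockdown. The third, on chr3L:10366124-10366649, lay 1137 bp from the start of an unnamed short RNA entry (FBtr0304433_df_nrg), within 1 kb of the microRNA gene mir-276a. It had fold enrichments of 6.71, 7.42 and 5.72, at the 40.1, 46.0 and 30.3 percentile, and was called in all 3 control libraries at the 69.0, 54.4 and 61.2 percentile. Both of these regions thus ranked lower in all 3 eff libraries than in any control library, whereas CG3630 ranked higher than in the control libraries that called it.

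The other 7 of the 10 strongest eff-only regions had fold enrichments of 4.64 to 7.15 in single eff libraries, and all 7 were called in all 3 control libraries. They included a region 231 bp from the TSS of fus, which encodes the splicing regulator Fusilli, and one 33 bp from the TSS of CG12171. A further one, on chr2L:15745211-15745710, lay within CycE, the gene of the cyclin that drives entry into S phase, 820 bp from the start of lncRNA:CR44974. Its fold enrichment was 5.95, 4.80 and 5.32 in the eff libraries. The remaining 4 were nearest to sncRNA:838 (within vsg), lncRNA:CR44206, CR40182 (within Myo81F, far from any coding TSS) and lncRNA:CR45029. Of all 89 eff-only regions, 83 (93.3%) were called in at least 1 control library, against 97.5% of all merged regions. All 3 control libraries called 50 of the 89 (56.2%, against 81.5%).

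Among the 11 cul4-only regions, the strongest was nearest to Sem1, a subunit of the proteasome lid, on chr2L:7063039-7063593, within the gene of the menin homologue Mnn1. Its fold enrichment was 11.9, 10.7 and 8.90 in cul4 replicates 1, 2 and 3, at the 78.8, 57.3 and 36.1 percentile. It was in no eff list, and control replicates 1 and 3 called it at percentiles of 40 and 33.5. All 3 cul4 libraries thus ranked it above the lower control value, with a wide spread among them.

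The second, in an intron of d4 on chr2R:5277556-5278111, had fold enrichments of 9.64, 8.92 and 11.9 and was in no control list. One more, nearest to SdhCL, was likewise in no control list. At least 1 control library called 9 of the 11 (81.8%, against 97.5% of all merged regions). All 3 control libraries called 2 of the 11 (18.2%, against 81.5%). Those 2 both lay at tRNA genes, one 6 bp from the start of tRNA:Ser-CGA-1-4 within hts, the adducin gene, and one 207 bp from the start of tRNA:Ala-AGC-2-1 within nmo, which encodes the kinase Nemo. Their fold enrichments were 4.93, 5.68 and 9.61, and 4.69, 5.62 and 7.60, in the cul4 libraries. Their control percentiles were 13.6, 3.25 and 16.9 at tRNA:Ser-CGA-1-4, and 20.3, 27.7 and 19.3 at tRNA:Ala-AGC-2-1.

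**Figure D2:**
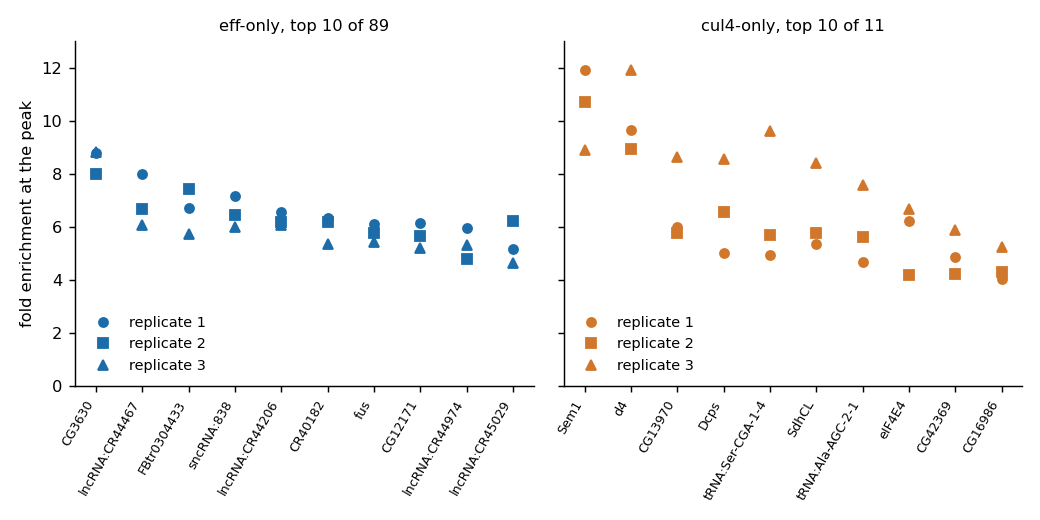
Fold enrichment at the peak (vertical axis) in each library for the 10 strongest eff-only regions (left, eff libraries) and the 10 strongest cul4-only regions (right, cul4 libraries), named by nearest TSS. CG3630 at 7.99 to 8.81 leads the left panel, and Sem1 at 8.90 to 11.9 leads the right.

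By place, 54 of the 89 eff-only regions (60.7%, 95% exact binomial interval 49.7 to 70.9%, counting error only) overlapped a promoter, taken as a TSS with 1500 bp upstream, against 62.2% of all merged regions. Another 21 (23.6%) were intronic, against 16.6% of all, 10 (11.2%) exonic, against 10.3%, and 4 (4.49%) intergenic, against 10.85%. Beside the same shares of all merged regions, 4 of the 11 cul4-only regions overlapped a promoter (36.4%, interval 10.9 to 69.2%). Another 2 were exonic (18.2%), 2 intronic (18.2%) and 3 intergenic (27.3%). The promoter share of cul4-only regions was 59.1% without cul4 replicate 2, 53.6% at equal list length and 52.1% at matched background. Of the eff-only regions, 16 (18.0%) lay within 1 kb of a region called in all 6 libraries, against 11.3% of all merged regions.

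Few eff-only regions carried Su(Hw), the zinc finger protein that defines the gypsy insulator. Only 11 of 89 (12.4%, interval 6.33 to 21.0%) overlapped a Su(Hw) site called in all 3 control libraries, against 37.3% of all merged regions and 40.9% of those called in all 6. Su(Hw) peaks of at least 1 eff knockdown library lay on 7 of the 89, and of at least 1 cul4 knockdown library on 1 of the 89. For all merged regions the corresponding shares were 39.1% and 36.0%. The share on control Su(Hw) sites was 32.2% without cul4 replicate 1 and 22.4% at equal list length. A low share was not particular to eff-only regions. It was 9.78% of the 92 regions called in 2 eff and no cul4 library (median percentile 5.34 in eff knockdown). Of the 416 regions called in 3 eff and 1 cul4 library (median percentile 14.5), it was 36.3%.

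Control Cul4 sites lay under 23 of the 89 eff-only regions (25.8%), against 29.5% of all merged regions. Rabbit Cul4 peaks of at least 1 eff knockdown library lay on 25 of the 89 (28.1%) and of at least 1 cul4 knockdown library on 17 (19.1%), against 26.7% and 27.8% of all merged regions. The 3 Cul4 lists of eff knockdown held 4488, 571 and 424 peaks, and 18 of the 25 regions were called in 1 of these lists only. Of the 11 cul4-only regions, 1 lay on a control Cul4 site and 1 on a control Su(Hw) site (9.09%, interval 0.230 to 41.3%), an interval that includes the 37.3% of all merged regions. The Su(Hw) share was 30.4% at equal list length, 29.2% at matched background, and up to 24% with 1 library left out (eff replicate 1). Su(Hw) peaks of at least 1 cul4 knockdown library lay on 3 of the 11 (27.3%), against 36.0% of all merged regions. Those of at least 1 eff knockdown library lay on 1 (9.09%), against 39.1%. Rabbit Cul4 peaks in the same order lay on 3 (27.3%) and 1 (9.09%), against 27.8% and 26.7%. The Sem1 region had Su(Hw) peaks in all 3 cul4 knockdown libraries, 1 control library and no eff knockdown library.

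Sequence at the summits of the eff-only regions held few of the 5 motifs searched on both strands within 100 bp. BEAF-32 TATCGATA was found in 3 of 89 (3.37%, against 7.84% of all merged regions) and M1BP GTGTGACC in 2 (2.2%, against 6.88%). The Su(Hw) motif was found in 1 (1.1%, against 9.23%). The GAGA factor motif (GAGAGAG) and the CTCF motif (AGNTGGCGC) were each found in 2 (2.2%, against 2.72% and 3.92%). Among the 11 cul4-only regions, BEAF-32 and M1BP were each found in 1 (9.09%) and the other motifs in none. No motif of the 5 contains another. The median GC content was 38.3% at eff-only and 41.8% at cul4-only summits, against 39.3% at all.

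**Figure D3:**
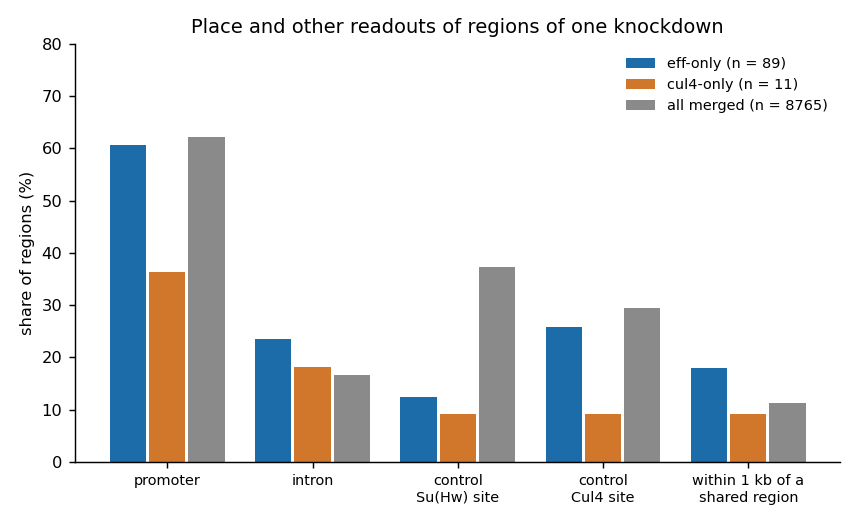
Share of regions (vertical axis, percent) that overlap a promoter, an intron, a control Su(Hw) site or a control Cul4 site, or lie within 1 kb of a region called in all 6 libraries, for the 89 eff-only, the 11 cul4-only and all 8765 merged regions. Eff-only regions stand furthest from all regions at Su(Hw) sites, 12.4% against 37.3%, and each cul4-only bar rests on 11 regions.

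With all 6 libraries, the composition of whole lists did not differ beyond the spread between libraries. Promoter peaks made up 64.1 ± 0.863% of the eff lists and 63.8 ± 1.48% of the cul4 lists (SD, n = 3 each, exact permutation p = 0.9). Peaks within 250 bp of a TSS made up 48.9 ± 0.888% in eff knockdown and 48.9 ± 1.48% in cul4 knockdown (n = 3 each, exact permutation p = 1). Peaks on control Su(Hw) sites made up 38.1 ± 0.098% and 38.8 ± 1.14% of the eff and cul4 lists (n = 3 each, exact permutation p = 0.4), and on control Cul4 sites 31.7 ± 0.883% and 32.5 ± 2.44% (n = 3 each, exact permutation p = 0.7). Without cul4 replicate 1 the groups no longer overlapped on Su(Hw) sites (-1.14 points) or on Cul4 sites (-2.15 points), each with an exact permutation p of 0.1. At equal list length the Cul4 share turned to 0.416 points higher in eff knockdown, also without overlap (exact permutation p = 0.1).

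Rank within the lists differed more between classes. The median percentile of CP190 peaks on control Cul4 sites was 57.3, 56.2 and 56.3 in eff knockdown, against 53.1, 52.4 and 48.9 in cul4 knockdown. The groups did not overlap, and the difference of 5.16 percentile points had the smallest p that the design allows (exact permutation p = 0.1, n = 3 each). Promoter peaks had medians of 48.5, 48.3 and 48.5 in eff knockdown, against 46.1, 45.8 and 45.2 in cul4 knockdown, a difference of 2.75 points (exact permutation p = 0.1, n = 3 each), again without overlap. Peaks on control Su(Hw) sites had medians of 61.5, 61.9 and 59.9 in eff knockdown, against 67.0, 62.7 and 61.4 in cul4 knockdown. That difference of -2.61 points lay within the spread (exact permutation p = 0.3, n = 3 each), and the groups overlapped. The overlap on Su(Hw) sites was lost (exact permutation p = 0.1) at equal list length (-2.60 points), at matched background (-2.71), with peaks ranked by p (-3.25) and without cul4 replicate 3 (-3.75), and the difference was -0.95 without cul4 replicate 1. Control libraries had medians of 53.3 to 57.1 on Cul4 sites, 46.5 to 49.2 in promoters and 60.7 to 63.7 on Su(Hw) sites.

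Cul4 replicate 1 stood apart in these classes once the same regions were ranked in every library. Among the 6076 regions called in all 6 libraries, ranked against each other, the median on Cul4 sites was 49.0, 49.7 and 51.2 in eff knockdown, against 41.3, 49.2 and 48.9 in cul4 knockdown. The groups overlapped on this scale, with a difference of 3.54 points with all libraries (exact permutation p = 0.2) and 0.968 points without cul4 replicate 1 (exact permutation p = 0.3). On Su(Hw) sites the medians were 60.7, 60.2 and 57.8 in eff knockdown, against 67.0, 61.1 and 61.2 in cul4 knockdown, without overlap and with a difference of -3.54 points (exact permutation p = 0.1), or -1.59 without that library (exact permutation p = 0.2). The separation of the groups was thus lost on Cul4 sites and gained on Su(Hw) sites under this ranking. For promoters the difference was 2.61 points, or 1.27 without it, both without overlap (exact permutation p = 0.1). This ranking was added after the data were seen.

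**Figure D4:**
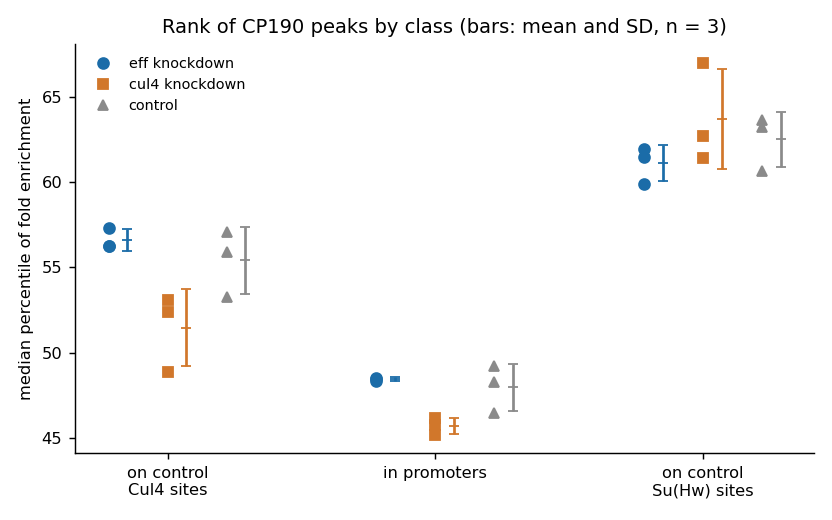
Median percentile of fold enrichment (vertical axis, which does not start at 0) of CP190 peaks on control Cul4 sites, in promoters and on control Su(Hw) sites, with 1 point per library and bars for the mean and SD (n = 3). Eff knockdown libraries lie above cul4 knockdown libraries on Cul4 sites (56.2 to 57.3 against 48.9 to 53.1) and in promoters, and overlap with them on Su(Hw) sites.

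For single regions, the percentile of each of the 6076 shared regions was tested with limma. At an adjusted p (Benjamini-Hochberg) under 0.05, 8 regions (0.132%) ranked higher in eff knockdown and 1 (0.0165%) ranked higher in cul4 knockdown. At an unadjusted p under 0.05 the counts were 634 and 209. All shared regions had a median difference of 3.07 percentile points, and 64.3% had a positive difference. That median depended on the setting. It was 0.222 points with shared regions ranked alone, 0.374 at matched background, 0.798 at equal list length and 0.768 without cul4 replicate 3. The other settings in percentile points gave 2.34 (without eff replicate 1) to 5.41 (without cul4 replicate 1). Ranked among shared regions alone, 40 ranked higher in eff knockdown and 46 in cul4 knockdown. With log2 fold enrichment after quantile normalization the counts were 51 and 55. The split into both directions therefore depends on the scale, and all 9 regions passed on both of these scales. With lists of equal length, 7 regions ranked higher in eff and 9 in cul4 knockdown, but only 2 of the 9 regions above, those of Tlk and Tollo, were still called in all 6 libraries and hence tested, and both passed. With matched backgrounds 4 were still tested and passed (Tlk, Tollo, Irk1 and Mctp). CG6908 was in neither set. With normal scores of the percentile, CG6908 and 4 of the 8 passed (Irk1, Tlk, Tollo and lncRNA:CR44588). No region passed without any 1 of the eff libraries or without cul4 replicate 2, whereas 300 and 51 passed without cul4 replicate 1, and 5 and 2 without cul4 replicate 3.

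The smallest p was that of the region near lncRNA:CR44588 on chr2L:12011408-12012647, 3901 bp from the TSS of the rhodopsin gene Rh5. Its percentile was 62.0, 63.4 and 61.2 in eff knockdown, against 2.54, 8.62 and 10.0 in cul4 knockdown, and its fold enrichment was 9.64, 10.1 and 9.60 against 3.25, 4.66 and 5.85. The groups were far apart, by 55.2 ± 5.47 points (SE, limma, adjusted p = 0.0103). The control libraries placed it between them, at the 41.6, 38.9 and 42.5 percentile, and all 3 control Cul4 libraries had a peak there.

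Irk1, the gene of an inwardly rectifying potassium channel, had a region 232 bp from its TSS on chr3R:23167647-23168596. It stood at the 54.7, 58.9 and 62.9 percentile in eff knockdown, against 12.5, 11.4 and 10.5 in cul4 knockdown (47.4 ± 5.49 points, SE, limma adjusted p = 0.0108). Control libraries gave 42.3, 10.1 and 33.9, which spans the cul4 values and lies below the eff values. The intronic region of Tlk, the Tousled-like kinase gene, on chrX:3740828-3742038, stood at the 79.4, 84.5 and 76.5 percentile in eff knockdown, against 34.7, 26.4 and 30.2 in cul4 knockdown (49.7 ± 5.79 points, adjusted p = 0.0108 by limma). Here the control libraries, at 77.1, 86.6 and 86.2, overlapped the eff libraries.

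Tollo, which encodes a Toll-family receptor, had a region 1559 bp from its TSS at the 78.6, 84.9 and 72.6 percentile in eff knockdown, against 35.4, 25.7 and 29.4 in cul4 knockdown (48.5 ± 6.13 points, limma adjusted p = 0.0175). Its control values of 62.7, 70.3 and 67.9 lay between both knockdowns. Mctp, which encodes a membrane protein with C2 domains, had a region on chr2R:18770657-18771750 at the 58.1, 59.1 and 62.9 percentile in eff knockdown, against 24.7, 5.17 and 1.34 in cul4 knockdown (49.6 ± 7.07 points, limma adjusted p = 0.0298). This region also lies within 1 kb of tRNA:Leu-AAG-1-4.

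The other 3 regions that ranked higher in eff knockdown lay in an intron of tara (nearest TSS bor), in an intron of CG45263 and 361 bp from the TSS of CG11658, with differences of 40.8, 42.6 and 44.5 points. None of the 8 overlapped a Su(Hw) peak of any control library, against 41.7% of all 6076 shared regions. On Cul4 peaks of all 3 control libraries lay 3 of the 8 (lncRNA:CR44588, Tlk and tara), near the 35.8% of all shared regions.

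The 1 region that ranked higher in cul4 knockdown lay 33 bp from the TSS of CG6908 on chr3R:11689715-11690397. Its percentile was 11.9, 9.50 and 6.13 in eff knockdown, against 58.2, 55.6 and 67.5 in cul4 knockdown, and its fold enrichment was 4.22, 4.08 and 3.81 against 8.56, 10.4 and 16.9. The difference was -51.3 ± 5.84 points (SE, limma, adjusted p = 0.0108). The control libraries, at 20.9, 3.31 and 19.2, lay far below the cul4 libraries and around the eff libraries.

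**Figure D5:**
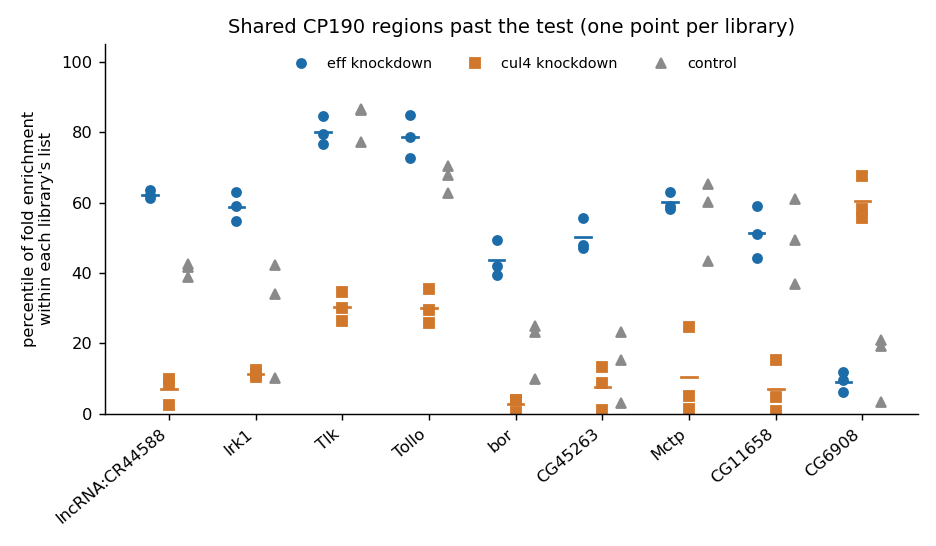
Percentile of fold enrichment within each list (vertical axis) for the 9 shared regions past the limma test, named by nearest TSS, with 1 point per library in eff knockdown, cul4 knockdown and control cells and short bars for the knockdown means. The first 8 lie higher in eff knockdown, and CG6908, at 6.13 to 11.9 against 55.6 to 67.5, lies lower.

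The next 9 regions in the direction of cul4 knockdown did not pass (limma adjusted p = 0.0586 to 0.108). They included 4 at or near the top of the cul4 lists, nearest to CG6023, CG14621, NimC2 and Sirup. The CG6023 region lay 16115 bp from that TSS, within kairos, and the NimC2 region 6800 bp from that TSS, within rk. CG6023 stood at the 70.8, 68.6 and 68.5 percentile in eff knockdown, against 92.8, 94.9 and 91.4 in cul4 knockdown. CG14621 stood at 71.5, 72.3 and 78.6 in eff knockdown, against 95.3, 99.3 and 93.9 in cul4 knockdown. Both, and the regions of NimC2 and aPKC, lay on Su(Hw) sites called in every Su(Hw) library of control, eff and cul4 cells. The other regions of this direction, CG6908 included, overlapped no control Su(Hw) peak. Of these, the region nearest to lncRNA:CR44131 had a Su(Hw) peak in 1 eff and all 3 cul4 knockdown libraries. Of all 6076 shared regions, 40.9% lay on a control Su(Hw) site. In the direction of eff knockdown, SNF4Agamma and ras did not pass either (limma adjusted p = 0.066 each). SNF4Agamma lay on a Su(Hw) site called in every Su(Hw) library of control, eff and cul4 cells, and ras on none. The region named by ras lay 15787 bp from its TSS, in an intron of stx. The tRNA:Pro-AGG-1-2 region stood at the 8.62, 14.1 and 15.5 percentile in eff knockdown, against 40.1, 45.8 and 51.7 in cul4 knockdown.

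On the scale of shared regions alone, Su(Hw) sites were 6 of the 40 regions that ranked higher in eff knockdown (15%) and 29 of the 46 that ranked higher in cul4 knockdown (63%), against 40.9% of all 6076. Control Cul4 sites were 13 of the 40 (32.5%) and 4 of the 46 (8.70%), against 35.9% of all. Promoters were 25 of the 40 (62.5%) and 18 of the 46 (39.1%), against 65.2%. These shares were not tested and were not recounted without cul4 replicate 1. Leaving out that library took the difference in median percentile on Su(Hw) sites, on this scale, from -3.54 to -1.59 points.

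By gene, a region within 1 kb of a TSS was called in all 3 eff libraries for 7578 of 18358 annotated genes and in all 3 cul4 libraries for 6345. Eff-only regions lay at 85 of the 18358 genes and cul4-only regions at 7. From 15 gene lists, 5 genes had an eff-only region there. By list these were 1 of 27 cell cycle and replication genes and 1 of 24 hemocyte and blood cell genes. The others were 1 of 19 lamina and nuclear pore genes and 2 of 90 cytoplasmic ribosomal protein genes. These counts were not tested against the share over all genes. The 5 genes were CycE, LanB1, which encodes a laminin subunit of the basement membrane, RpL5, and the neighbours Nup154, a nuclear pore gene, and RpL9. All but RpL5 also had a region called in all 6 libraries within 1 kb of a TSS. The eff-only Nup154 region, on chr2L:11004550-11004922, had fold enrichments of 4.78, 3.51 and 4.59 in eff knockdown, and lay 122 bp from a region called in all 6 libraries. The eff-only LanB1 region, 4 bp from the TSS, had 3.95, 3.65 and 3.92, and the RpL5 region 4.12, 3.19 and 3.39. The eff-only calls at all 5 genes thus rested on weak peaks, CycE on the strongest.

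Cul4-only regions lay at 4 of the 295 tRNA genes, whose internal promoters recruit RNA polymerase III, and at no gene of the other 14 lists. The 4 genes are tRNA:Ser-CGA-1-4 with the neighbouring tRNA:Val-AAC-2-1 and tRNA:Val-AAC-2-2, and tRNA:Ala-AGC-2-1, which share 2 regions. Of all merged regions, 63 (0.719%) lay within 1 kb of a tRNA gene start, of which eff replicates 1, 2 and 3 called 57, 55 and 55 and cul4 replicates 61, 56 and 54. tRNA genes with a region in all 3 libraries numbered 87 in eff and 90 in cul4 knockdown. The 52 shared regions there had a median difference of -0.65 points, against 3.07 for all shared regions and 4.55 for those in promoters.

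Several other lists were called less completely in cul4 replicate 3. Of 73 mitochondrial ribosomal protein genes, 56 had a region in all 3 eff libraries and 41 in all 3 cul4 libraries, with single libraries at 61, 58 and 58 in eff and 60, 57 and 41 in cul4 knockdown. Of 48 proteasome genes, 33 had one in all 3 eff and 26 in all 3 cul4 libraries, with 33, 33 and 33 against 35, 34 and 26. Cytoplasmic ribosomal protein genes gave 76 and 74 of 90. In these lists the library that lowered the cul4 count was the one with the lowest implied background, and its part was not tested. The 78 shared regions of cytoplasmic ribosomal protein genes had a median difference of 7.47 points, and the 24 of cell cycle and replication genes 7.12 points. The median was 3.07 for all shared regions and 4.55 for those in promoters, the closer comparison for regions near a TSS. In these lists, no region passed the limma test in either direction.

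Among single genes, the eff promoter region stood at the 67.0, 72.1 and 54.9 percentile in eff knockdown, against 68.7, 63.8 and 56.9 in cul4 knockdown, and the Cul4 region at 28.0, 28.6 and 27.3, against 17.8, 12.7 and 19.2. Neither passed the test (limma adjusted p = 0.924 and 0.359). The su(Hw) region stood at 80.7, 91.9 and 78.0 in eff knockdown, against 74.8, 87.3 and 90.1 in cul4 knockdown. The Cp190 region was called in all 3 eff libraries, at 10.0, 8.58 and 8.55, and in 2 cul4 libraries, at 17.5 and 0.963. On chromosome 2L, Rtnl1, the reticulon gene, had 3 regions called in all 6 libraries, and an eff-only region on chr2L:4997947-4998355 with fold enrichments of 4.91, 4.17 and 3.74, which lay 153 bp from one of them. The CYLD region stood at 79.8, 77.7 and 80.7 in eff knockdown, against 74.2, 68.9 and 67.9 in cul4 knockdown, without passing the test (limma adjusted p = 0.400).

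Further eff-only regions, named after their values were seen, lay near Cam, Gapdh2, Pfk, Gcn5 and Ubc6. Cam encodes calmodulin, Gapdh2 and Pfk encode glycolytic enzymes, Gcn5 encodes a histone acetyltransferase and Ubc6 encodes an E2 enzyme like Eff. Their fold enrichments were 3.33 to 5.80 in single eff libraries, and all 5 were called in 2 or 3 control libraries. The Ubc6 region stood near the bottom of the eff lists, at the 2.37, 3.71 and 2.00 percentile. Ubc6 also had a region called in all 6 libraries, which ranked lower in eff than in cul4 knockdown (-6.28 points) without passing the limma test.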

How the data were processed

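Per the labels' processing notes and the methods, reads passed through cutadapt 3.4, Bowtie2 2.4.2 (dm6), SAMtools 1.12 and Picard before MACS2 2.2.7.1 called the peaks of each library with a q cutoff of 1e-09. The deposited lists give a fold enrichment (a ratio of pileup to local background), used for ranks, and −log10 p and −log10 q, which the authors took from MACS2, used for the alternatives and the implied background. Peaks sharing 1 bp were merged with the highest-fold peak kept per library. Percentiles were fitted with limma 3.58.1 (R 4.3.3, trend), tested on simulated data. Values per library were compared by exact permutation. Places and names came from Ensembl release 115. The named regions are the 10 strongest eff-only and cul4-only regions and the 10 shared regions with the smallest p in each direction, with list genes and fixed single genes. Of the listed symbols, 1 had no match. Members and lists were chosen with earlier results of these data known. DiffBind on reads was not run, and mouse Cul4 lists and inputs were not used here.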

Additional observations from a re-analysis of the deposited data

How the results depend on the processing

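The differences in median percentile on Su(Hw) sites, on Cul4 sites and in promoters kept their sign under all 13 alternatives each, while counts moved. Eff-only regions numbered 597 and cul4-only regions 71 when a difference of 2 libraries sufficed, and 60 cul4-only regions were found with summits linked within 250 bp. At equal list length there were 56 cul4-only regions, 22.4% of eff-only regions on Su(Hw) sites, a difference of 0 in peaks and of 0.416 points in the share on Cul4 sites, and 9 regions ranked higher in cul4 knockdown. At matched background these were 48 cul4-only regions, -89.7 peaks, 0.566 points and 9 regions. The share of cul4-only regions on Su(Hw) sites was 0% at a −log10 q of at least 20, against 30.4% at equal list length and 29.2% at matched background. Regions ranked higher in eff and cul4 knockdown numbered 40 and 46 among shared regions, 51 and 55 on the log2 scale, and 19 in eff knockdown by −log10 p and 4 by normal score. The causes were not tested.

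Leaving out 1 library gave a difference of 42.5 to 1061.5 peaks, 89 to 503 eff-only and 11 to 45 cul4-only regions, with 11.3 to 32.2% of eff-only and 9.09 to 24% of cul4-only regions on Su(Hw) sites, 36.4 to 59.1% of cul4-only regions in promoters, 0 to 300 regions ranked higher in eff and 0 to 51 in cul4 knockdown. Differences in share ran from -0.513 to 0.966 points for promoters, -0.538 to 0.890 within 250 bp of a TSS, -1.14 to -0.068 on Su(Hw) sites and -2.15 to 0.217 on Cul4 sites, and the difference in median percentile on Su(Hw) sites from -3.75 to -0.95.

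With the replicate number as a block, 41 regions ranked higher in eff and 8 in cul4 knockdown. Deviations of same-numbered libraries correlated at 0.38, -0.11 and 0.04 for replicates 1, 2 and 3. These values do not settle whether the numbers pair the libraries, and the main fit was unpaired.

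Lists without read totals limit comparison to calls and ranks, and a region absent from a list is one below the cutoff there.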
